A study of Homo sapiens with 30 samples.

Results

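The genes described here are the 10 core genes of the m6A RNA methylation machinery, chosen by symbol (RBM15, RBM15B, WTAP, METTL3, METTL14, ZC3H13, CBLL1, YTHDC1, FTO and ALKBH5) out of 28307 genes listed in each count table. N6-methyladenosine (m6A) is a methyl mark that a nuclear writer complex places on adenosines of mRNA and of long noncoding RNAs as they are made, that reader proteins bind, and that demethylases can remove. XIST, the long noncoding RNA that coats X chromosomes, is known from other work to be among the heavily marked RNAs, with RBM15 and RBM15B as the adaptors that bring the writer to it and YTHDC1 as the nuclear reader. RBM15, RBM15B and SPEN, the repressor that binds XIST, belong to the same family of proteins with RNA recognition motifs and a SPOC domain.

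Total RNA was sequenced in 30 libraries of H9 cells, an established human embryonic stem cell line, in 10 groups of 3. Primed WT cells were grown on Matrigel in mTeSR1. NaiveCult WT and PXGL WT cells were chemically reset to the naive state and kept on inactivated mouse fibroblasts, the second in PXGL medium (PD0325901, XAV939, Gö6983 and LIF). XACT KO cells are 3 clones with a deletion over the start sites of the long noncoding RNA XACT, in NaiveCult. XIST KO is 1 homozygous clone, with its 3 libraries as technical replicates, in PXGL. CRISPRi UT and CRISPRi Dox are 3 clones in PXGL that carry a doxycycline-inducible dCas9-KRAB repressor and a guide to the XIST promoter, without and with doxycycline, so both groups share the transgenes. siScr, siSPEN1 and siSPEN2 are naive PXGL cells transfected in 2 rounds with a scrambled siRNA, with 1 siRNA to SPEN (siSPEN1) or with 2 (siSPEN2). The file names carry 3 different codes, read here as sequencing projects though the sample labels do not say so. Primed WT, NaiveCult WT and XACT KO share one, the XIST groups with PXGL WT another, and the siRNA groups the third. Project in this sense cannot be told apart from state where PXGL WT is set against Primed WT or NaiveCult WT.

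Depth ran from 31190052 to 65637976 counts per library, and the 10 largest genes held 1.82 to 2.399% of the counts. The targeted genes moved as labelled. XIST had 9 to 23 counts per library in XIST KO and 37961 to 56717 in PXGL WT. Its level fell by 2.62 on the log2 scale in CRISPRi Dox (SE 0.51), where 1 library had 418 counts and the highest library 9275. SPEN averaged 330.0 ± 46.3 CPM (the count divided by the total of its library and scaled, SD, n = 3) in siScr, 163 ± 13.0 in siSPEN1 and 157 ± 8.28 in siSPEN2. XACT fell by 4.63 on the log2 scale in XACT KO (SE 0.52). All 9 naive markers on the list (such as KLF17 and DPPA5) averaged at least 1 CPM in every naive group, with a summed level of 2403 to 3720 CPM against 29.7 to 34.5 in Primed WT, where KLF17, DNMT3L and ARGFX were at 0. The 8 primed markers summed to 4994 to 5341 CPM in Primed WT and to 152 to 274 in the naive groups.

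YTHDC1, the nuclear m6A reader (chromosome 4, 68310387 to 68350090, minus strand, hg38, in the GENCODE 44 annotation), was listed at 0 in all 30 libraries. This is not read as a level. The tables list 3289 genes at 0 in every library, among them 1221 of 19087 protein-coding symbols, and these include genes that every cell uses, such as EIF4A1, DDX39B and DDX24. No other GENCODE 44 exon overlaps YTHDC1 on its strand. The other 9 genes were counted in every library, with at least 1190 counts each, and all 9 passed the filter on low counts in each fit.

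The genes of the writer complex were expressed at unequal levels. The adaptors RBM15 (chromosome 1, 110338506 to 110346681, plus strand) and RBM15B (chromosome 3, 51391285 to 51397908, plus strand, annotated as a single exon block) had mean levels of 37.3 and 36.5 CPM per kb of annotated exon over the 10 groups. The scaffold WTAP (chromosome 6, 159725585 to 159756319, plus strand) stood at 25.4 CPM per kb. ZC3H13 (chromosome 13, 45954465 to 46052759, minus strand), which holds the complex in the nucleus, had 14.3, and the E3 ligase-like subunit CBLL1 (chromosome 7, 107743073 to 107761667, plus strand) had 12.8. The catalytic subunit METTL3 (chromosome 14, 21498133 to 21511342, minus strand) had 8.14 and its RNA-binding partner METTL14 (chromosome 4, 118685392 to 118715433, plus strand) had 9.77 CPM per kb. Of the demethylases, ALKBH5 (chromosome 17, 18183078 to 18209954, plus strand) was the highest of the 9 at 86.6, and FTO (chromosome 16, 53701692 to 54158512, plus strand) the lowest at 3.72 CPM per kb. The level of FTO is divided by 21379 bases of exon from all its annotated transcripts, which lowers it relative to genes with few transcripts.

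Across the 10 groups the means of each gene stayed within a 2.10-fold range. RBM15B had the widest range, from 144 ± 13.2 CPM in NaiveCult WT to 304 ± 8.75 in siSPEN1 (SD, n = 3). METTL3 followed, from 36.4 CPM in siScr to 71.4 in Primed WT, a 1.96-fold range. WTAP had the narrowest, 1.26-fold, from 152 CPM in CRISPRi UT to 192 in XACT KO. Among 11729 genes with a mean of at least 5 CPM, the median log2 range of the group means was 1.34, 1.16% of genes had a smaller range than WTAP, and 36.5% had a smaller range than RBM15B. For WTAP, all neighbours from the second to the tenth place in the order of group levels overlapped in their library values.

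**Figure D1:**
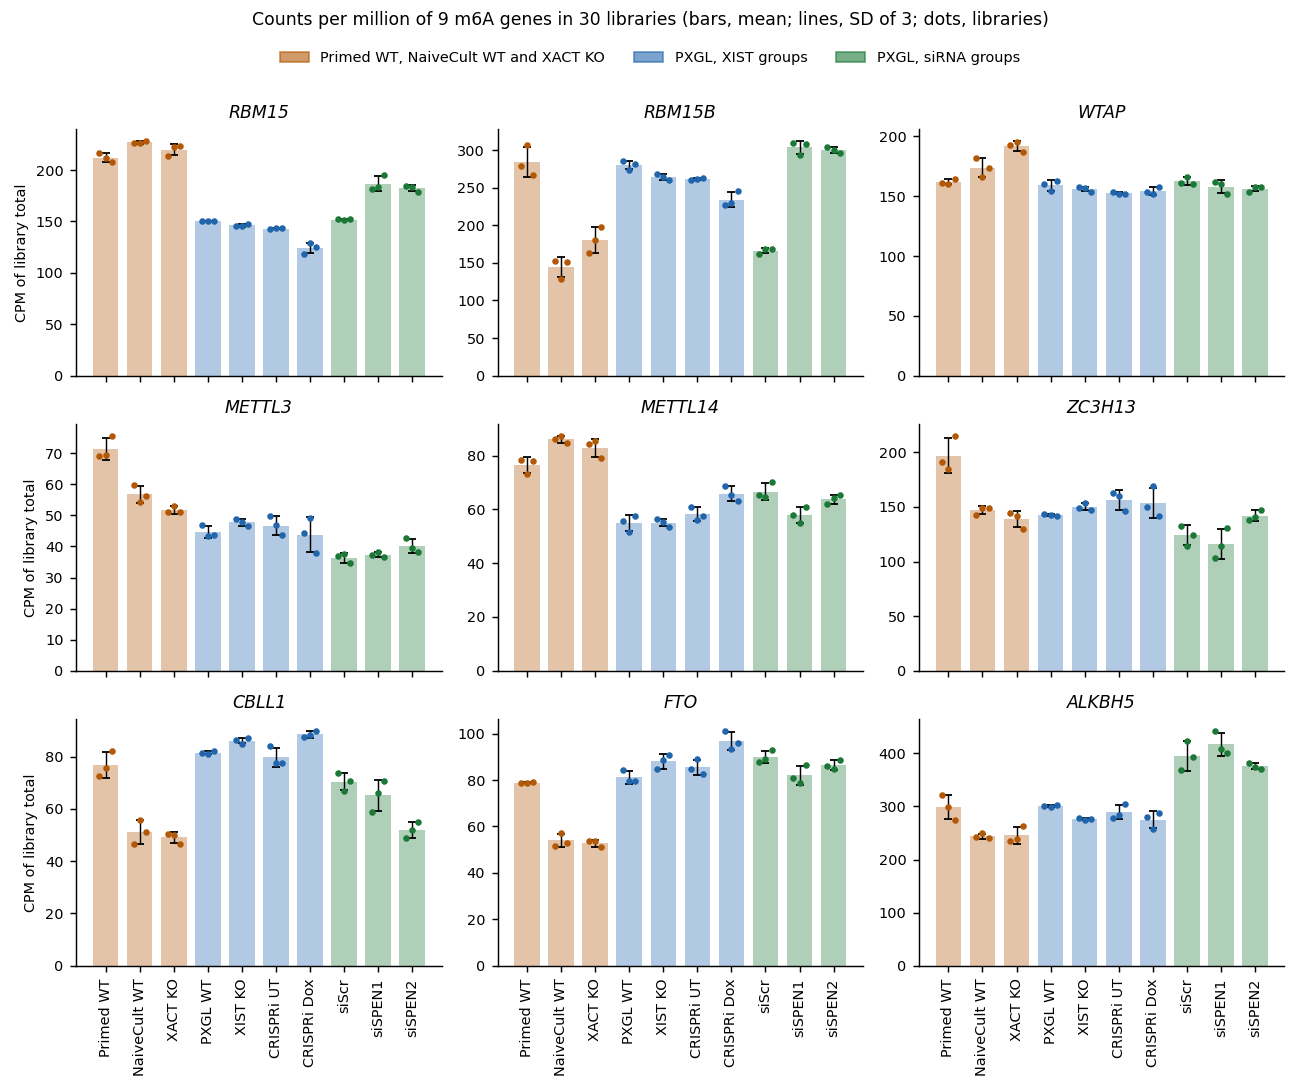
Library-scaled counts (CPM, linear axis from 0) for 9 m6A genes in the 10 groups, with bars for group means, lines for the SD of 3 libraries and dots for libraries, coloured by sequencing project. RBM15B is low in NaiveCult WT (144), siScr (166) and XACT KO (181) and lies between 234 and 304 in the other groups.

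The first question was whether loss of XIST went with a change in the 9 counted genes, which do not include the reader YTHDC1. In the XIST knockout none of the 9 genes passed the test (edgeR quasi-likelihood, Benjamini-Hochberg adjusted p under 0.05 over 17286 genes), and all 9 intervals (2 SE either way) lay between -0.21 and 0.22 on the log2 scale. Over all genes 6.94% passed as higher and 5.99% as lower. At an unadjusted p under 0.05 the count was 4 of 9, and DESeq2 called 1 gene, ALKBH5, as lower. The share of all genes at that unadjusted p is not given, so the 4 of 9 cannot be told from background. In a fit of the 6 libraries alone, 6 of 9 passed (4 higher, 2 lower). Over all genes 4376 passed in that fit, against 1199 higher and 1036 lower in the main fit.

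ALKBH5, an m6A demethylase of the nucleus, came nearest the threshold. It had 301, 299.5 and 302 CPM in the PXGL WT libraries and 277, 275 and 276 in XIST KO, so the groups did not overlap. Its log2 fold change was -0.13 (SE 0.04, adjusted p = 0.056 by edgeR's quasi-likelihood test). FTO, the other demethylase, had 84.4, 79.4 and 79.6 CPM in PXGL WT and 84.7, 88.5 and 90.9 in XIST KO, a log2 fold change of 0.12 (SE 0.04, adjusted p = 0.078 by edgeR). The FTO libraries of the groups did not overlap either, though the highest PXGL WT and the lowest XIST KO library nearly met.

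RBM15 and RBM15B, which guide methylation to XIST, were slightly lower in every XIST KO library than in every PXGL WT library, but did not pass. RBM15 had 150.1, 151 and 150.3 CPM in PXGL WT and 145, 146 and 147 in the knockout (log2 fold change -0.04, adjusted p = 0.47 by edgeR, SE 0.03). RBM15B had 285.3, 274 and 281.8 CPM in PXGL WT and 268.5, 264 and 260.4 in the knockout (-0.09, adjusted p = 0.12 by edgeR, SE 0.04). In the fit of the 6 libraries alone RBM15B passed (adjusted p = 0.012 by edgeR). METTL14, with 54.9 CPM in PXGL WT and 55.1 in XIST KO, had the smallest difference of the 9 (0.00, interval -0.08 to 0.09). The knockout is 1 clone with technical replicates. These p-values measure spread between libraries, estimated over all groups of the XIST fit (the CRISPRi groups among them), and not spread between knockout clones.

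Between CRISPRi Dox and CRISPRi UT, 5 of the 9 genes changed by small amounts. No group received doxycycline without the XIST guide, so doxycycline and repression of XIST cannot be told apart here. METTL14, CBLL1 and FTO rose and RBM15 and RBM15B fell, by 1.16-fold at most. Over all genes 20.7% passed as higher and 18.9% as lower in this comparison, so 3 of 9 higher and 2 of 9 lower are near the background. The median absolute log2 change was 0.14 over the 9 genes and 0.17 over all genes. Bulk libraries cannot tell a change in RNA per cell from a change in the share of cells that make it.

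RBM15 had 142, 144 and 143 CPM in the untreated clones and 119, 129 and 125 after doxycycline, with no overlap. Its log2 fold change was -0.22 (adjusted p = 3.6e-05 by edgeR, SE 0.03). RBM15B went from 259.96, 262 and 263 CPM to 228, 229.7 and 245 (-0.17, adjusted p = 5.4e-04 by edgeR, SE 0.04), again with no overlap. The 2 adaptors therefore fell together in all 3 treated libraries.

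FTO had 84.8, 89.0 and 82.8 CPM without doxycycline and 101, 93.5 and 95.9 with it (0.17, adjusted p = 0.0032 by edgeR, SE 0.04). METTL14 had 61.1, 56.1 and 57.5 CPM without and 68.8, 65.5 and 63.3 with doxycycline (0.16, adjusted p = 0.0049 by edgeR, SE 0.04). CBLL1 had 83.9, 77.6 and 77.5 CPM without and 87.3, 88.3 and 89.8 with (0.14, adjusted p = 0.0054 by edgeR, SE 0.04). For each of these 3 genes every treated library was above every untreated one. WTAP, METTL3, ZC3H13 and ALKBH5 did not pass, with log2 fold changes of 0.01, -0.11, -0.04 and -0.08. SPEN itself was lower, with 309, 311 and 281 CPM in CRISPRi UT and 208, 281.9 and 245.1 in CRISPRi Dox (log2 fold change -0.31, SE 0.07). The 9 naive markers summed to 3402 to 3489 CPM in CRISPRi UT and 3066 to 3219 in CRISPRi Dox, and the 5 hypoblast markers to 22.1 to 24.0 and 29.8 to 37.3, and the part of these values in the result was not tested. Without the CRISPRi Dox library in which XIST was lowest, and with all CRISPRi UT libraries kept, the count stayed at 3 higher and 2 lower. In a fit of all 30 libraries CBLL1 no longer passed (0.14, edgeR adjusted p = 0.081).

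The XIST contrasts were then set against each other as the difference of the log2 fold changes, CRISPRi minus knockout, a difference that also holds doxycycline on the CRISPRi side and a single clone on the knockout side. RBM15 was the 1 gene of 9 to differ, with a difference of -0.17 (SE 0.05, adjusted p = 0.014 by edgeR), where 11.8% of all genes passed as higher and 10% as lower. The difference for METTL14 was 0.16 (interval 0.04 to 0.28, edgeR adjusted p = 0.069), and that for METTL3 was -0.20 (interval -0.38 to -0.01, edgeR adjusted p = 0.13). For the other 6 genes the intervals of the difference included 0 and reached no further than -0.25 or 0.17.

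The next question was whether knockdown of SPEN, which shares its domain family with RBM15 and RBM15B, went with changes in the machinery. RBM15B rose 1.84-fold with siSPEN1 and 1.79-fold with siSPEN2, and RBM15 rose 1.24-fold and 1.19-fold. METTL14 and FTO fell with siSPEN1, ZC3H13 rose and CBLL1 fell with siSPEN2, and WTAP, METTL3 and ALKBH5 did not pass with either. XIST itself passed as lower with siSPEN1 (630 to 514 CPM, -0.28, adjusted p = 0.0097 by edgeR, SE 0.08), though siScr replicate 2, at 501 CPM, lay within the range of siSPEN1. With siSPEN2 it did not pass (-0.15, adjusted p = 0.18 by edgeR, SE 0.08). Of the 9 genes, 2 were higher and 2 lower with siSPEN1, where 20.8% of 16448 genes were higher and 22.9% lower. With siSPEN2, 3 were higher and 1 lower, against 20.5% and 20.7% of all genes. Both mixes are compared with the same siScr libraries, so their changes are not independent.

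RBM15B had 162, 169 and 168 CPM in siScr, 309.6, 294 and 308 in siSPEN1 and 304, 300.0 and 296 in siSPEN2. Every SPEN knockdown library was far above every siScr library. The log2 fold changes were 0.88 (adjusted p = 2.3e-12 by edgeR, SE 0.04) and 0.84 (adjusted p = 5.8e-12 by edgeR, SE 0.04). In the siSPEN1 comparison 7.92% of the genes tested changed by at least as much in size, and in the siSPEN2 comparison 7.56%. Neither change reached the log2 limit of 1 that the study used beside its p, a rule that 5.08% of genes met with siSPEN1 and 4.24% with siSPEN2.

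The level in siScr matters to this result. The untransfected PXGL WT libraries, from another sequencing project, averaged 280.4 ± 5.72 CPM of RBM15B, XIST KO 264 ± 4.04 and CRISPRi UT 262 ± 1.65 (SD, n = 3). CRISPRi Dox was the lowest of these other naive PXGL groups, with a mean of 234 CPM. The siSPEN libraries lay above every library of these groups, and siScr lay below all of them. For RBM15 siScr was not below these groups. It had 152, 151 and 152 CPM in siScr, next to 150.4 ± 0.40 (SD, n = 3) in PXGL WT, and 182, 183 and 195 in siSPEN1 and 185, 184 and 179 in siSPEN2. The log2 fold changes of RBM15 were 0.31 (adjusted p = 6e-06 by edgeR, SE 0.04) and 0.26 (adjusted p = 7e-05 by edgeR, SE 0.04). Marker levels moved in these libraries too. The 5 hypoblast markers summed to 48.5 to 51.4 CPM in siScr, 39.6 to 41.5 in siSPEN1 and 28.7 to 32.4 in siSPEN2, with APOA1 at 0 in siScr and siSPEN2, and the 8 primed markers to 271 to 274, 161 to 167 and 194 to 200.5 CPM, and their part in the result was not tested. Sequencing project and transfection cannot be told apart in the comparison of levels between siScr and PXGL WT.

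The promoters of RBM15 and RBM15B are shown because both genes rose in both SPEN knockdowns and both fell in the CRISPRi comparison. In the comparisons of pluripotent states they had opposite signs after TMM scaling. Each run holds 250 bases before and 50 after the RefSeq start (assembly GRCh38.p14, plus strand), for RBM15 at chr1:110339127-110339426 and for RBM15B at chr3:51391035-51391334. Capitals mark GGGCGG on either strand (the GC box) and CACGTG (the E-box).
RBM15: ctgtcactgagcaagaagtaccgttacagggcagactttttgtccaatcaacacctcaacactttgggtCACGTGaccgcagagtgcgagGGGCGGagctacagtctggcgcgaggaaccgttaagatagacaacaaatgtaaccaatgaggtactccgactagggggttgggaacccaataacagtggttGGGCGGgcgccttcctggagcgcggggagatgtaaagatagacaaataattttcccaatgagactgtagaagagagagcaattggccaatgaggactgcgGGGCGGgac
RBM15B: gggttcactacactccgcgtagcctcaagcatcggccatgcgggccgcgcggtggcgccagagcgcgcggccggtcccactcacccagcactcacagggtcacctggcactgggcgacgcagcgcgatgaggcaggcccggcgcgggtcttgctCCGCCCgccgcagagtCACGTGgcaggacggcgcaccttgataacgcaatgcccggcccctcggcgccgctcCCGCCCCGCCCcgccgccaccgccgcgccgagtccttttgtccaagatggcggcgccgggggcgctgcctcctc

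The RBM15 window held 3 copies of GGGCGG on the printed strand, and the RBM15B window 3 on the opposite strand, of which a pair overlap. Both held CACGTG once. Of 35116 promoter windows of the same length, 45.0% held GGGCGG on either strand and 7.26% held CACGTG. The CCAAT box (CCAAT on either strand, in 34.6% of windows) occurred 6 times for RBM15 and 0 times for RBM15B. The windows had 15 and 42 CG dinucleotides, where the median window had 14. These are matches of letters and say nothing of binding.

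The other subunits moved less and not alike in the SPEN knockdowns. CBLL1 had 73.6, 66.9 and 70.8 CPM in siScr, 58.8, 66.1 and 70.5 in siSPEN1 and 48.8, 51.9 and 55.1 in siSPEN2. Only the siSPEN2 libraries lay wholly below siScr, with a log2 fold change of -0.45 (adjusted p = 6.5e-06 by edgeR, SE 0.06), against -0.10 (adjusted p = 0.20 by edgeR, SE 0.06) for siSPEN1. The difference between the mixes was itself past the threshold (-0.35, adjusted p = 1.8e-04 by edgeR, SE 0.06).

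ZC3H13 had 133, 114 and 125 CPM in siScr, 103, 114 and 130.3 in siSPEN1 and 138, 141 and 147 in siSPEN2. The siSPEN2 libraries were above all others (0.19 against siScr, adjusted p = 0.026 by edgeR, SE 0.07), while siSPEN1 overlapped siScr (-0.09, adjusted p = 0.31 by edgeR, SE 0.07), and the mixes differed by 0.27 (adjusted p = 0.0024 by edgeR, SE 0.07). The rise against siScr did not pass without siScr replicate 2 (0.13, edgeR adjusted p = 0.14), without siScr replicate 3 (0.20) or without siSPEN2 replicate 3 (0.16).

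METTL14 had 65.4, 64.5 and 70.1 CPM in siScr and 57.9, 55.0 and 60.8 in siSPEN1 (-0.19, adjusted p = 0.0054 by edgeR, SE 0.05), with no overlap. Without siScr replicate 3 the call was lost (-0.14, edgeR adjusted p = 0.056). FTO had 87.9, 89.2 and 92.8 CPM in siScr and 81.0, 78.6 and 86.5 in siSPEN1, and its log2 fold change of -0.12 (adjusted p = 0.048 by edgeR, SE 0.05) passed in 3 alternative settings and missed the threshold in 10. ALKBH5 was 0.17 lower on the log2 scale with siSPEN2 than with siSPEN1 (adjusted p = 0.018 by edgeR, SE 0.05), but neither mix passed against siScr, and the call was lost without siSPEN1 replicate 1 (-0.13), siSPEN2 replicate 2 (-0.16) or siSPEN2 replicate 3 (-0.16). Between the mixes 18.3% of all genes were higher and 16.3% lower with siSPEN2. METTL3, the methyltransferase itself, averaged 36.4 CPM in siScr, 37.3 in siSPEN1 and 40.2 in siSPEN2, with intervals of -0.07 to 0.17 and 0.01 to 0.25 (edgeR adjusted p = 0.55 and 0.082).

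**Figure D2:**
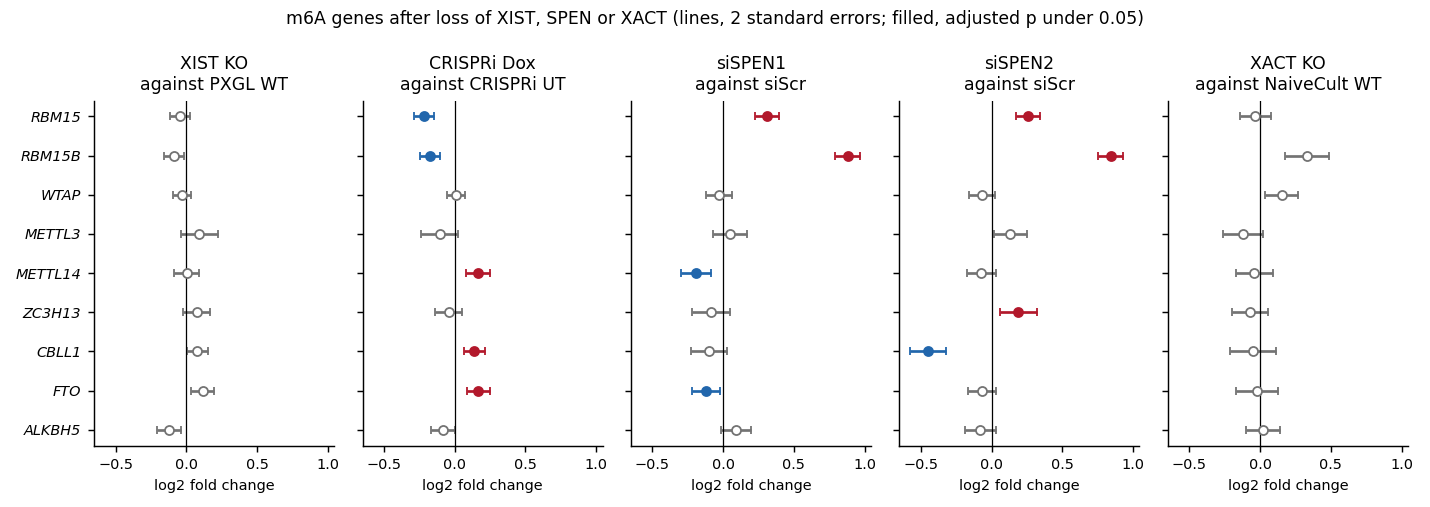
Log2 fold changes of 9 m6A genes (horizontal axis, log2) in 5 loss-of-function comparisons, with lines of 2 SE either way, filled red for genes that rose and filled blue for genes that fell at an adjusted p under 0.05, and open for the rest. RBM15B stands out in both SPEN knockdowns at 0.88 and 0.84, and no gene is filled for XIST KO or XACT KO.

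Deletion of XACT, a noncoding RNA that coats active X chromosomes in naive cells, left the 9 genes without a call (edgeR, 0 of 9), where 0.206% of 16472 genes were higher and 0.219% lower. At an unadjusted p under 0.05 the count was 2 of 9, given without the share of all genes at that p, and DESeq2 called RBM15B. RBM15B had 152.3, 129 and 152 CPM in NaiveCult WT and 163, 181 and 198 in the 3 XACT KO clones, with no overlap (0.33, adjusted p = 0.062 by edgeR, SE 0.08). It passed with the replicate number as a block (edgeR adjusted p = 0.024), with no filter on low counts, in a fit of all 30 libraries and without NaiveCult WT replicate 1 (0.033). WTAP averaged 174 ± 8.15 CPM in NaiveCult WT and 192 ± 4.38 in XACT KO (SD, n = 3), a log2 fold change of 0.15 (adjusted p = 0.20 by edgeR, SE 0.06). The other 7 genes had intervals between -0.26 and 0.14.

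The last question was how the machinery differs between pluripotent states. All 9 genes passed in NaiveCult WT against Primed WT (3 higher, 6 lower) and in PXGL WT against Primed WT (5 higher, 4 lower). The changes were small beside those of all genes tested, a set that also holds genes of much lower count. The median absolute log2 change was 0.27 and 0.26 over the 9 genes and 1.00 and 1.18 over 18663 genes, and no m6A gene passed the log2 limit of 1. In NaiveCult WT 42.5% of all genes were higher and 43% lower, with 49.6% past the limit of 1. In PXGL WT 43.1% were higher and 44.4% lower, with 54.8% past that limit, so a call in these comparisons is the usual case.

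METTL3, the catalytic subunit, and ZC3H13 were lower in both naive states than in primed cells. METTL3 had 69.1, 69.4 and 75.6 CPM in Primed WT, 59.9, 54.3 and 56.2 in NaiveCult WT and 47.0, 43.4 and 43.8 in PXGL WT. The 3 states did not overlap, and the log2 fold changes against primed were -0.18 (adjusted p = 0.0090 by edgeR, SE 0.06) and -0.47 (adjusted p = 2.4e-06 by edgeR, SE 0.06). ZC3H13 had 191, 185 and 215 CPM in Primed WT, 143, 149 and 149 in NaiveCult WT and 143, 143 and 141 in PXGL WT, falls of 0.27 and 0.26 on the log2 scale against primed. With CRISPRi UT in place of PXGL WT the log2 fold change of ZC3H13 was -0.085 and no longer passed (adjusted p = 0.17 by edgeR).

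WTAP was higher in both naive states after TMM scaling, by 0.26 and 0.18 on the log2 scale (SE 0.04 each). Its CPM hardly differed, at 162 ± 2.13 in Primed WT, 174 ± 8.15 in NaiveCult WT and 159 ± 4.61 in PXGL WT (SD, n = 3). Scaling matters here: with library totals alone the median of all genes shifted by -0.15 in NaiveCult WT and -0.21 in PXGL WT against primed relative to TMM. In that setting the PXGL change of WTAP turned to -0.03 and that of RBM15B from 0.19 to -0.02, neither past the threshold, and 0 of 9 genes were higher and 4 lower in PXGL WT than in Primed WT. Over all genes, 16050 to 17642 passed in this comparison over the settings that left no library out.

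After TMM scaling the other 6 genes (RBM15, RBM15B, METTL14, CBLL1, FTO and ALKBH5) had opposite signs against primed cells in the 2 naive media. Each differed between PXGL WT and NaiveCult WT. With library totals alone the PXGL rises of CBLL1, FTO and ALKBH5 against primed shrank to 0.09, 0.04 and 0.01, none past the threshold. That comparison of the naive media called 4 of 9 genes higher in PXGL WT (35.7% of all genes) and 3 of 9 lower (34.9%). RBM15B had 279, 306 and 267 CPM in Primed WT, 152.3, 129 and 152 in NaiveCult WT and 285.3, 274 and 281.8 in PXGL WT. It was 2.02-fold higher in PXGL WT than in NaiveCult WT (log2 1.01, adjusted p = 4.6e-09 by edgeR, SE 0.06), the 1 change among the 9 genes and all comparisons to pass the log2 limit of 1, which 27.4% of all genes passed. Over the alternative settings, which include other PXGL controls, this log2 fold change ran from 0.31 to 1.05.

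RBM15 went the other way. It had 216, 212 and 208 CPM in Primed WT, 227, 226 and 228 in NaiveCult WT and 150.1, 151 and 150.3 in PXGL WT, so PXGL WT was 0.54 lower than NaiveCult WT on the log2 scale (adjusted p = 3e-08 by edgeR, SE 0.04). METTL14 had 78.3, 73.1 and 78.1 CPM in Primed WT, 86.2, 87.3 and 84.7 in NaiveCult WT and 55.6, 51.6 and 57.4 in PXGL WT, a fall of 0.59 between the naive media (adjusted p = 1.6e-07 by edgeR, SE 0.05). METTL3 was also lower in PXGL WT than in NaiveCult WT (-0.29, adjusted p = 4e-04 by edgeR, SE 0.06). In both methyltransferase subunits and RBM15 all PXGL WT libraries lay below all NaiveCult WT libraries.

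FTO, CBLL1 and ALKBH5, like RBM15B, were higher in PXGL medium than in NaiveCult. FTO had 78.9, 78.9 and 79.0 CPM in Primed WT, 51.7, 57.3 and 53.0 in NaiveCult WT and 84.4, 79.4 and 79.6 in PXGL WT, a difference of 0.64 between the naive media (adjusted p = 8.4e-08 by edgeR, SE 0.05). CBLL1 had 72.6, 75.4 and 82.2 CPM in Primed WT, 46.7, 55.7 and 51.2 in NaiveCult WT and 81.3, 80.9 and 82.2 in PXGL WT, a difference of 0.72 (adjusted p = 2.7e-07 by edgeR, SE 0.07). ALKBH5 had 321, 299.8 and 275 CPM in Primed WT, 242, 249 and 240.4 in NaiveCult WT and 300.7, 299.5 and 302 in PXGL WT. Its fall in NaiveCult WT against primed (-0.14, adjusted p = 0.030 by edgeR, SE 0.05) was lost in 6 alternatives, among them the fits without Primed WT replicate 1 (-0.08) and without NaiveCult WT replicate 3 (-0.11). It was 0.36 higher in PXGL WT than in NaiveCult WT (adjusted p = 4.6e-05 by edgeR, SE 0.05). WTAP and ZC3H13 did not pass between the naive media, with differences of -0.07 (interval -0.16 to 0.01) and 0.01 (interval -0.10 to 0.12).

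**Figure D3:**
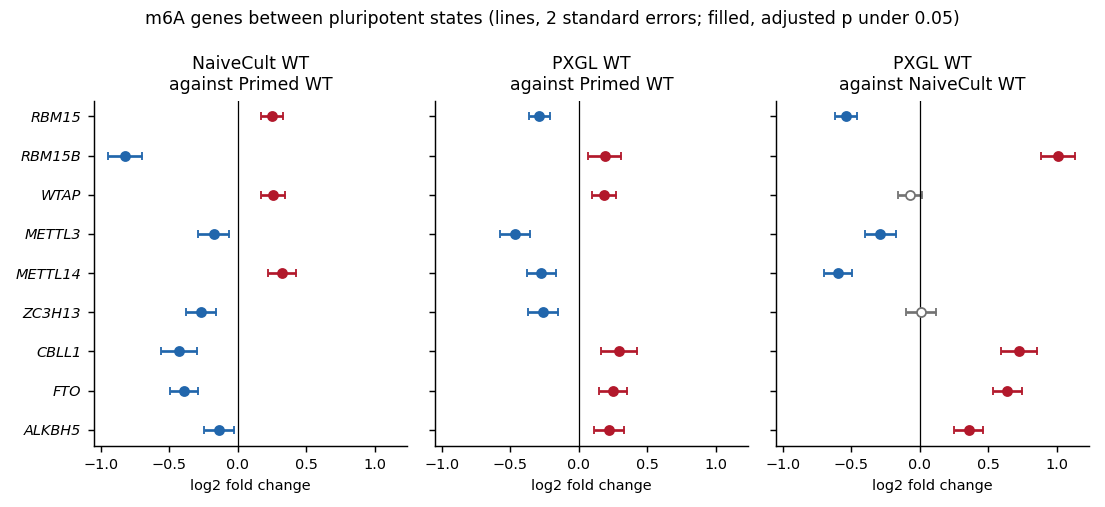
Log2 fold changes of 9 m6A genes (horizontal axis, log2) between Primed WT, NaiveCult WT and PXGL WT cells, with lines of 2 SE either way, filled red for higher and filled blue for lower at an adjusted p under 0.05. RBM15B, CBLL1, FTO and ALKBH5 lie left of 0 for NaiveCult and right of 0 for PXGL, and RBM15 and METTL14 the reverse, all after TMM scaling.

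Marker levels differed between groups grown in different media. Between the NaiveCult and PXGL groups, medium and sequencing project cannot be told apart. The summed level of the 6 trophoblast markers was 10.3 to 10.7 CPM in Primed WT, 335 to 420.3 in NaiveCult WT, 374 to 510.2 in XACT KO and 23.7 to 46.1 in the PXGL groups, and CGA was at 0 in Primed WT. The 5 hypoblast markers summed to 2.57 to 3.31 CPM in Primed WT, 45.3 to 63.3 in the NaiveCult groups and 22.1 to 51.4 in the PXGL groups. The 6 fibroblast markers were at most 63.5 CPM, in Primed WT. Their part in the m6A genes was not tested. With CRISPRi UT in place of PXGL WT, all 6 genes kept their direction against primed, though RBM15B no longer passed (0.13, edgeR adjusted p = 0.079), nor did it without Primed WT replicate 3 (0.14). With siScr in its place RBM15B turned to -0.49 (edgeR adjusted p = 5.3e-06) and METTL14 to 0.09 (edgeR adjusted p = 0.16), so the PXGL direction of these genes against primed rests on which PXGL control is used. Against NaiveCult WT the direction of the 7 genes that passed was the same with either control.

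Ratios within a library do not depend on its scaling. The log2 ratio of RBM15 to RBM15B, both per kb of exon, was 0.08 ± 0.10 in Primed WT, 1.16 ± 0.13 in NaiveCult WT, 0.79 ± 0.11 in XACT KO and -0.39 ± 0.03 in PXGL WT (SD, n = 3). It lay between -0.41 and -0.35 in XIST KO and both CRISPRi groups, at 0.37 ± 0.03 in siScr, and at -0.20 ± 0.06 and -0.21 ± 0.01 in siSPEN1 and siSPEN2. Per kb of exon RBM15 was thus the more abundant adaptor in NaiveCult WT by 2.24-fold and RBM15B in PXGL WT by 1.31-fold. These factors depend on the annotated exon lengths used, 4670 bases for RBM15 and 6624 for RBM15B, while differences of the ratio between groups do not. The library values of siScr did not overlap those of either SPEN knockdown, nor those of the 3 states each other. With 3 libraries against 3 a 2-sided exact permutation test cannot go below p = 0.1, which these comparisons reached, and no adjusted value over 27 ratio comparisons was under 0.15.

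The ratio of METTL3 to METTL14, which pair as a heterodimer, moved less. Its log2 value was 0.12 ± 0.07 in Primed WT, -0.38 ± 0.08 in NaiveCult WT, -0.07 ± 0.08 in PXGL WT and 0.01 ± 0.01 in XIST KO (SD, n = 3). It was -0.10 ± 0.07 in CRISPRi UT and -0.37 ± 0.17 in CRISPRi Dox, and it ran from -0.65 ± 0.13 in siScr to -0.41 ± 0.10 in siSPEN1. The ratio of FTO to ALKBH5 was higher in XIST KO than in PXGL WT by 0.24 on the log2 scale and in CRISPRi Dox than in CRISPRi UT by 0.25, with no overlap in either (exact permutation p = 0.1 for each, the smallest possible, adjusted p = 0.15). It was -4.75 ± 0.05 in NaiveCult WT and -4.46 ± 0.05 in PXGL WT (SD, n = 3).

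**Figure D4:**
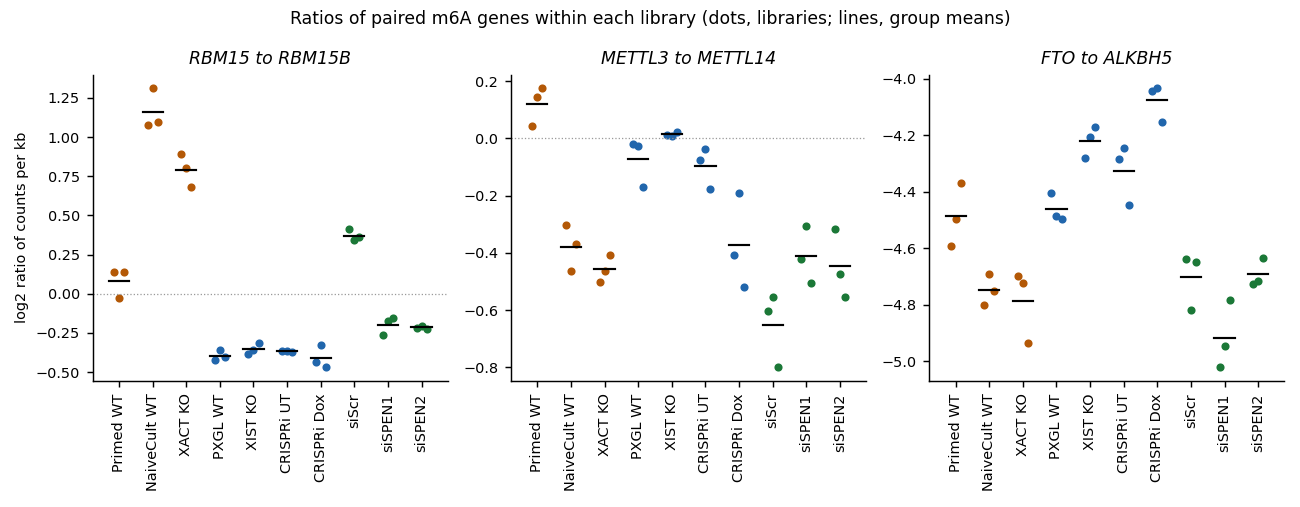
Log2 ratios of counts per kb (vertical axis) of 3 gene pairs in each of 30 libraries, by group, with dots for libraries and black lines for group means. The ratio of RBM15 to RBM15B is 1.16 in NaiveCult WT, 0.37 in siScr and below 0 in the other PXGL groups.

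The profiles of the 9 genes over the 10 group means (log2 of CPM plus 0.5) were unlike each other. The closest pair was METTL3 and ZC3H13 (Pearson r 0.84 over 10 groups) and the most opposed were WTAP and FTO (r -0.90). For RBM15 and RBM15B r was -0.28. Of the 11729 genes compared, those most like RBM15B were FANCC (r 0.97) and DNMT1 (r 0.95), those most like METTL3 were RNF169 and TTC14 (r 0.99 each), those most like FTO were ZER1 and TAB1 (r 0.99 each), and those most like RBM15 were SMG1P3 (r 0.98) and SYNE2 (r 0.96). The 10 points share sequencing projects, so these values describe these groups only.

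Other genes of the pathway, 17 readers, cofactors and methyltransferases of other RNAs, were read from a separate list, and all 17 were tested. In XIST KO, 1 was higher and 1 lower, where 6.94% and 5.99% of all genes were. IGF2BP1, an m6A-binding protein that stabilises mRNA, fell by 0.21 on the log2 scale (adjusted p = 4.9e-05 by edgeR, SE 0.03), the largest change. In CRISPRi Dox, 4 were higher and 4 lower, near the 20.7% and 18.9% of all genes, led by MAT2A, which makes the methyl donor S-adenosylmethionine, at 354 CPM without and 275 with doxycycline (-0.38, adjusted p = 1.8e-05 by edgeR, SE 0.06). The difference between these comparisons passed for 4 of 17, with MAT2A at -0.36 (SE 0.08).

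METTL16, the methyltransferase of U6 RNA and of the MAT2A transcript, had the largest change in both SPEN knockdowns. It averaged 153 ± 4.16 CPM in siScr, 257 ± 1.90 in siSPEN1 and 301.1 ± 1.52 in siSPEN2 (SD, n = 3), log2 fold changes of 0.76 and 0.96 (SE 0.04 each). As for RBM15B, siScr lay below the other PXGL groups, which had 244.5 to 282.5 CPM of METTL16. With siSPEN1 5 of 17 were higher and 2 lower, where 20.8% and 22.9% of all genes were. With siSPEN2 the counts were also 5 and 2, where 20.5% and 20.7% of all genes were. Between the mixes 4 were higher and 4 lower with siSPEN2, near the 18.3% and 16.3% of all genes, led by the reader YTHDC2 at 0.30 (SE 0.07). In XACT KO 0 of 17 passed by edgeR or DESeq2, with 3 at an unadjusted p under 0.05, again without the share of all genes at that p.

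NaiveCult WT had 9 of 17 higher and 6 lower than Primed WT (42.5% and 43% of all genes). The 2 genes past the log2 limit of 1, which 49.6% of all genes passed, were the cytoplasmic reader YTHDF1 (83.7 to 157 CPM, 1.06, SE 0.06) and IGF2BP1 (628 to 144 CPM, -1.97, SE 0.07). PXGL WT had 10 higher and 5 lower than Primed WT (43.1% and 44.4% of all genes), with 7 of 17 past the limit, a smaller share than the 54.8% of all genes: YTHDF1 at 2.18, MAT2A at 1.57, IGF2BP2 at 1.12, METTL16 at 1.02, TRMT112 (a cofactor of METTL5) at -1.17, IGF2BP3 at -1.15 and PRRC2A at 2.48. Between the naive media 10 were higher and 4 lower in PXGL WT (35.7% and 34.9% of all genes), and 6 of 17 passed the limit where 27.4% of all genes did, with YTHDF1 at 1.12, IGF2BP1 at 1.28, IGF2BP2 at 1.54, PCIF1 (the methyltransferase of the mRNA cap) at 1.08, TRMT112 at -1.05 and PRRC2A at 2.92. PRRC2A is uncertain, since it had 31 to 181 counts in the libraries of one sequencing project and 268 to 667 in the others and shares exon bases with other annotated genes of its strand. VIRMA, a large subunit of the writer named here after its values were seen, was lower by 0.18 in NaiveCult WT and 0.23 in PXGL WT than in primed cells and did not pass in any loss-of-function comparison.

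**Figure D5:**
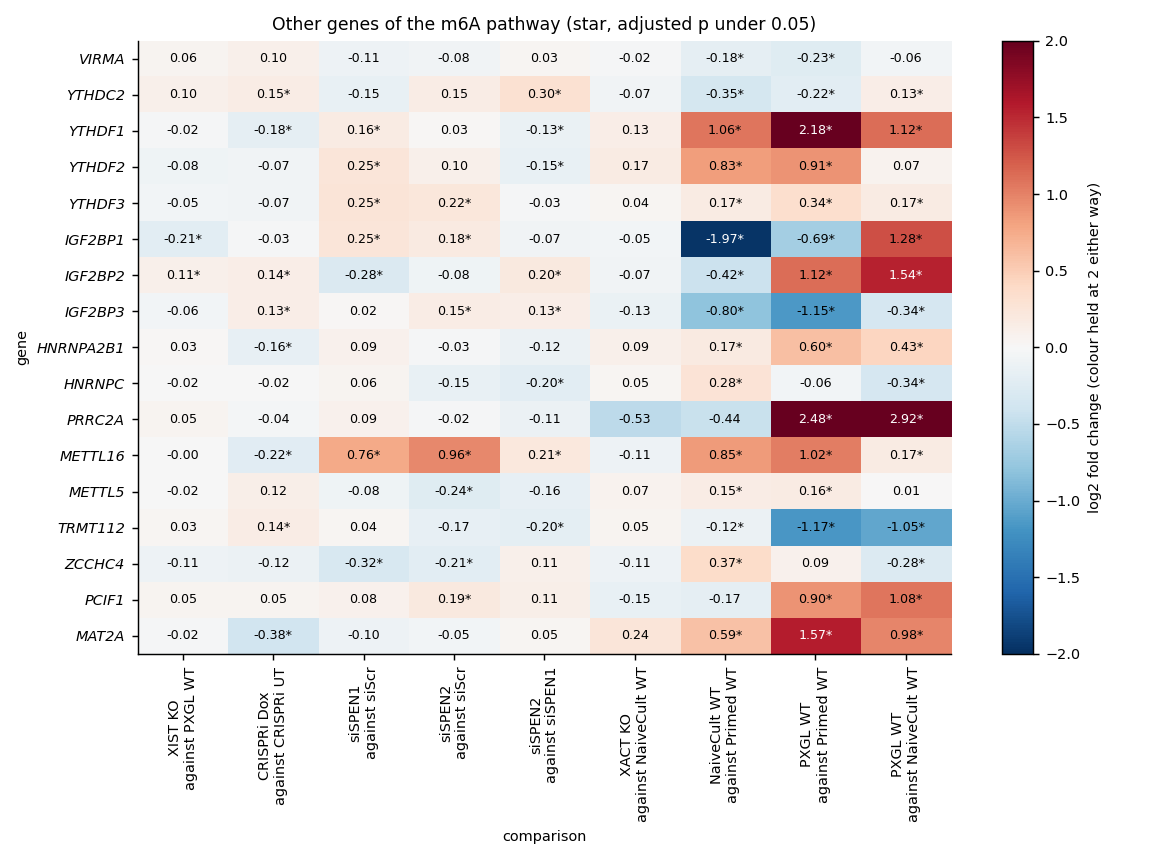
Log2 fold changes of 17 other m6A pathway genes (rows) in 9 comparisons (columns), printed in each cell and coloured from blue (lower) to red (higher), with a star at an adjusted p under 0.05. The strong colours lie in the 3 state comparisons, and METTL16 stands out in the SPEN knockdowns at 0.76 and 0.96.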

How the data were processed

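Stranded, ribosome-depleted total RNA of 30 libraries was sequenced by the authors. The deposited files hold raw read counts per gene. Per the labels and the study's methods, reads were trimmed with Trim Galore 0.6.5, aligned with Bowtie2 to hg38 and to the mouse genome, deduplicated with Picard 2.23.5, freed of mouse feeder reads with XenofilteR and counted with htseq-count (HTSeq 0.13.5) on the reverse strand over exons. Reads from regions of low mappability are lost by the mapping-quality minimum of 10, and the 0 of some genes limits what the tables can show. No library was identical to another.

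Counts were tested with edgeR 4.0.16 in R 4.3.3 (TMM scaling, filterByExpr with a minimum count of 10, quasi-likelihood F test, Benjamini-Hochberg adjustment over all genes tested). A gene passed at an adjusted p under 0.05, and was called by the study's rule where the log2 fold change was also beyond 1 either way. SEs were taken as the size of the log2 change over the root of F. The fits, 4 in all, were: the XIST groups (17286 genes), the siRNA groups (16448), XACT KO with NaiveCult WT (16472) and the 3 unmodified states (18663). Levels are CPM of the library total, per kb of GENCODE 44 exon union between genes. DESeq2 1.42.0 and the other settings of the closing section were alternatives. The edgeR step was tested on simulated data. Groups were taken from the sample labels. Where nothing says that libraries came from separate cultures, p-values measure only the spread between them. Named genes are all 10 members, the targets, the pathway genes past the study's rule or else with the largest change, and the 2 genes most correlated with each of the 4 members of widest range. The members and lists were chosen with earlier results of these data known.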

Additional observations from a re-analysis of the deposited data

Results flagged for a closer look

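The log2 fold change of RBM15 in CRISPRi Dox against CRISPRi UT minus that in XIST KO against PXGL WT was -0.17 (SE 0.05, edgeR adjusted p = 0.014, n = 3 libraries a group, those of XIST KO technical replicates of 1 clone). The CRISPRi side includes doxycycline, which cannot be told apart from repression of XIST. The difference kept its sign and passed in all 18 alternative settings. The SPEN siRNA mixes differed for ZC3H13 (siSPEN2 minus siSPEN1, 0.27), CBLL1 (-0.35) and ALKBH5 (-0.17).

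The effects of the naive media, each against the same Primed WT libraries, differed for RBM15 (PXGL minus NaiveCult, -0.54), RBM15B (1.01), METTL3 (-0.29), METTL14 (-0.59), CBLL1 (0.72), FTO (0.64) and ALKBH5 (0.36). Sequencing project and medium cannot be told apart here.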

How the results depend on the processing

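Of 42 member values past the threshold, 29 stayed past it in the same direction in every alternative tried, and of 48 not past it, 29 stayed so. For XIST KO, the count of members passing (0) became 1 with library totals alone, with no filter on low counts and with DESeq2, and 6 with the 6 libraries alone, where all genes passing rose to 4376 from 1199 higher and 1036 lower, against 1328 with all 30 libraries in 1 fit (1482, without XIST KO replicate 2, to 1598 when 1 library was left out). Members passing stayed at 0 in that comparison when 1 library was left out. For the difference of the XIST loss effects, all genes passing went from 2034 higher and 1737 lower to 2274 in all with all 30 libraries and ran from 2937 to 5119 with 1 library left out, and members passing from 1 to 3. For XACT KO, members passing (0) became 1 with no filter, with the replicate block and with DESeq2, and 2 with all 30 libraries, and all genes passing (70) became 762, 551, 672 and 1964. With 1 library left out members passing ran from 0 to 1 and all genes passing from 0 to 447 (the highest with NaiveCult WT replicate 1 left out, 0 with XACT KO replicate 1 or 3 left out). The cause was not tested. For siSPEN1, members passing ran from 2 (without siScr replicate 3) to 5. For PXGL WT against Primed WT, members passing fell from 9 to 4 with library totals alone, where RBM15B (-0.019) and WTAP (-0.025) turned, and with siScr in place of PXGL WT RBM15B turned to -0.49 and METTL14 to 0.087. The replicate numbers of the labels showed no clear pairing of the libraries: correlations of same-numbered deviations ran from -0.07 to 0.07. Each library correlated best with its own number only between siSPEN2 and siSPEN1, where 0.07, 0.03 and 0.06 were above the largest other value (0.02). With 3 libraries a group these correlations cannot settle whether libraries were paired, nor for the CRISPRi groups, which are 3 clones without and with doxycycline. The replicate block left members passing at their count in the other comparisons (5 for CRISPRi Dox, 4 for each SPEN mix). Ratios moved by less than 1 SD in all 162 values with 1 library left out. With other scalings 62 levels moved by more than 1 SD and 118 did not.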
